A study of Homo sapiens with 12 samples.

Results

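The response shared by BPS1 and BPS2, a pair of morpholino oligonucleotides, was measured by taking their 8 libraries as one group, with both oligonucleotides weighted equally, and comparing it with 4 control libraries. These are all 12 RNA-seq libraries of the series, with 4 per oligonucleotide and 4 controls. All were made from KELLY, an established human neuroblastoma cell line with extra copies of MYCN. Cells of every group received a morpholino, an uncharged antisense molecule, held on a DNA leash so that lipid could carry it in, at 50 nM for 48 h in 4% serum. The controls thus carried a control oligonucleotide, leash and lipid as well, and no group went without them. The stated purpose was to measure the changes in RNA that come with raised NEAT1_2 and paraspeckles. No label states that replicates came from separate cultures, so the p-values cover only how far these 12 libraries scatter, a scatter that may be technical.

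NEAT1 is a long non-coding RNA made in a short form, NEAT1_1, and a long form, NEAT1_2, from the same start. NEAT1_2 is the scaffold of the paraspeckle, a nuclear body that holds RNA-binding proteins and some RNAs. Neuroblastoma arises from the sympathetic branch of the neural crest, and most cells of lines such as KELLY are in an adrenergic state, kept by factors such as HAND2 and ISL1 and marked by enzymes of noradrenaline synthesis. A mesenchymal state, closer to neural crest cells, is the other state described in this tumour. BMP, Wnt, Notch and ERK signals steer neural crest cells between these fates, and each leaves a trace in the RNA of its own feedback inhibitors.

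KELLY's defining markers were present in all 12 libraries. The normalized count of HAND2 was 10945 to 18586, that of DBH 22611 to 32417 and that of MYCN 71302 to 92957. Of 22 markers of Schwann, blood, endothelial, epithelial, liver, glial and fibroblast cells, 10 averaged under 10 and the highest value in any library was 225, for KRT19. SOX10 and ALB were at 0 in some libraries. Summed over the 22, the level was 677 to 789 in control, 803 to 1107 in BPS1 and 689 to 853 in BPS2. The BPS1 range thus lay above the control range, and the part of this shift in the results below was not tested. The most deviant libraries were BPS1 replicate 4 and control replicate 1, whose deviations from the median had an SD over genes of 0.594 and 0.471, against 0.377 to 0.425 in the other 10. Normalized counts summed to 29.6 M to 33.3 M per library.

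Of 20454 genes tested, 866 differed between the 8 oligonucleotide libraries and control (4.23%; limma, Benjamini-Hochberg adjusted p under 0.05), and such genes are called below. Higher values were found for 475 (2.32%) and lower values for 391 (1.91%). For a gene to count as a common response, all 8 oligonucleotide libraries also had to lie on one side of all 4 controls. This left 550 genes (2.69%), 324 higher (1.58%) and 226 lower (1.10%). For genes picked from this set below, the lack of overlap follows from the definition and adds no support. List members named for their smallest p are also likely to lack overlap by that choice, so it adds no support there either. Without the call, 847 genes met the condition on libraries (4.14%), 498 above (2.43%) and 349 below (1.71%). Most common changes were small, since 44 rises and 27 falls reached 2-fold. The median log2 fold change of the common rises was 0.55, and that of the common falls was −0.46. Fold changes are on the scale log2(normalized count + 1), which understates changes of low genes.

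The common genes moved farther from control with BPS1 than with BPS2 in 416 of 550 cases. Their rises had a median of 0.59 with BPS1 and 0.46 with BPS2, and their falls a median of −0.55 and −0.37. Over all genes tested the spread was also wider with BPS1, with quartiles of −0.20 and 0.18, against −0.15 and 0.13 with BPS2. The larger move with BPS1 is thus not shown to be particular to the common genes. The 2 single comparisons share the control libraries, so their values stand here side by side and no agreement is read from them. A direct comparison of BPS2 with BPS1 does not use the controls. It called 803 genes in all (3.93%) and 71 of the 550 common genes (12.9%), 70 of them farther from control with BPS1 and 1 with BPS2. For the other 479 the difference did not pass, which does not show that the oligonucleotides act alike on them. A pooled call can also be carried by 1 oligonucleotide, and among the 316 called genes outside the common set the direct comparison called 169, with BPS1 the farther in 159. Single comparisons with control called 1760 genes for BPS1 (8.60%) and 247 for BPS2 (1.21%). Pooling called 46 genes that neither single comparison called (5.31% of the 866), 33 higher and 13 lower. Of these, 29 were common (63.0%), near the share among all called genes (63.5%). Under the strictest reading, with the larger of the 2 single p-values used for each gene, 90 common genes passed, 60 higher and 30 lower.

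NEAT1 itself, counted on chromosome 11 from 65422774 to 65445540 on GRCh38, was lower with both oligonucleotides. The 4 control libraries held normalized counts of 6926, 7021, 7074 and 6494. The 8 oligonucleotide libraries ran from 1414 to 4853 with a median of 3146. No oligonucleotide library reached the lowest control. The pooled log2 fold change was −1.24 ± 0.12 (SE; limma adjusted p = 6.75e-05), and an exact two-sided permutation test over every choice of 4 of the 12 libraries gave p = 0.00404, the smallest it can give. The fall was uneven, at −1.79 with BPS1 and −0.69 with BPS2 (adjusted p of the difference 5.67e-04). The SE leaves this difference out. In a 2-group model, whose spread includes it, the limma adjusted p was 0.0330. With the larger of the 2 single limma p-values the adjusted p was 0.0416. NEAT1_1 and NEAT1_2 are counted together in a single row, which does not show whether NEAT1_2 rose. RF01957 and RF01956, rows of short RNAs annotated within NEAT1, fell 9.09-fold and 9.67-fold. RF01956 was chosen after its values were seen, and both share sequence with NEAT1, so the assignment of their reads is uncertain. Among 27 genes of paraspeckle proteins tested, PSPC1, a core protein of these bodies, was called higher, and 2 were called lower, among them RBM3. PSPC1 went from 2890 to 3237 in control to 3570 to 4702 in the 8 oligonucleotide libraries, a log2 fold change of 0.35 ± 0.07 (limma adjusted p = 0.00896) without overlap. RBM3 (−0.19) overlapped with control and differed between the oligonucleotides, and any one of 10 single omissions, all but control replicate 4 and BPS1 replicate 4, ended its call (adjusted p up to 0.151). Without BPS1 replicate 4 the list had 5 lower.

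**Figure D1:**
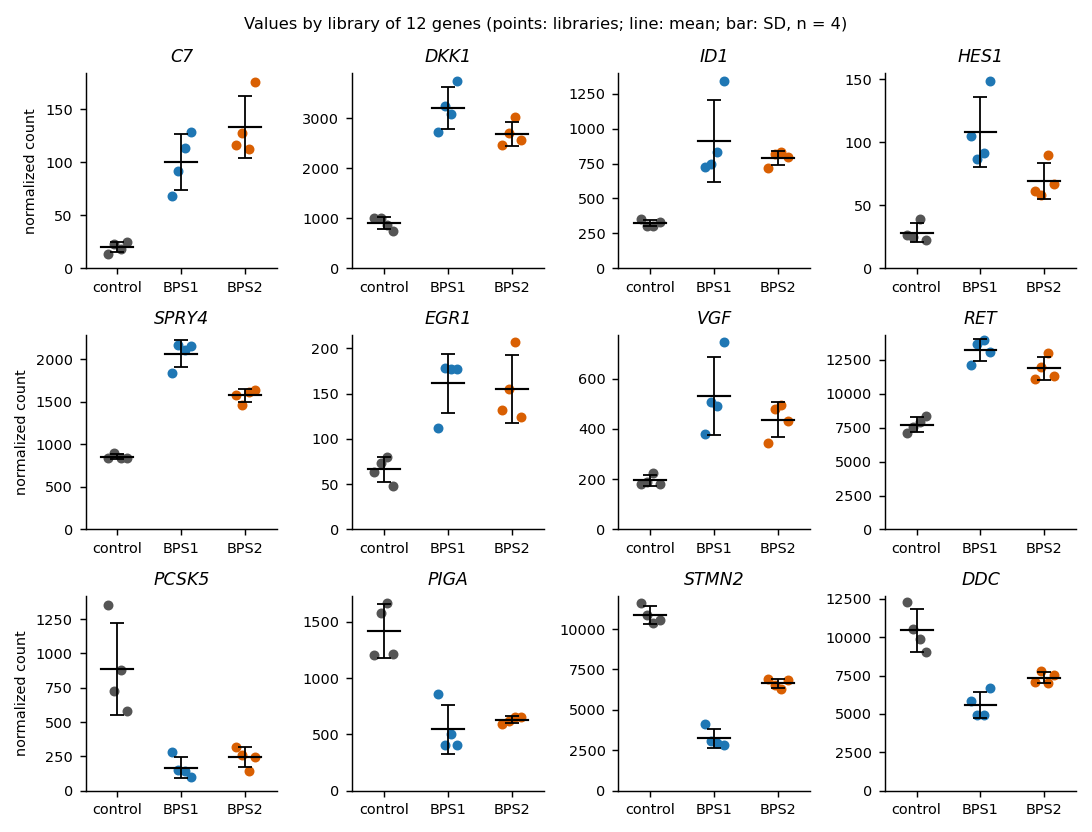
Deposited normalized counts of 12 genes, 1 point per library, for control, BPS1 and BPS2, with mean (line) and SD (bar), n = 4 each; each panel has its own vertical axis from 0. All 12 are common genes, so by definition the 8 oligonucleotide libraries lie on one side of the 4 controls in each panel. For DKK1 the controls are at 752 to 1010 and the others at 2459 to 3757.

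Several genes that BMP signals induce, inhibitors of the pathway among them, rose. BMP ligands act through receptors on SMAD proteins, which switch on the ID genes, repressors of differentiation factors, and SMAD6, SMAD7 and BAMBI, which damp the signal. In this list 8 of 22 tested members were called, all higher and all common. The list's median log2 fold change was 0.28, against −0.00 over all genes tested, and its median was 0.33 with BPS1 and 0.14 with BPS2. ID1 held 351, 306, 306 and 330 in control and 716 to 1346 with a median of 808 in the 8 oligonucleotide libraries. Every oligonucleotide library was at least at the level of 716, above all controls, and BPS1 replicate 4 was the highest. The log2 fold change of ID1 was 1.37 ± 0.14 (limma adjusted p = 1.44e-04). SMAD6, which blocks receptor signalling, held 648, 632, 623 and 775 in control and 1189 to 2447 with a median of 1521 otherwise (1.21 ± 0.10, limma adjusted p = 3.26e-05). BAMBI, a receptor decoy, rose by 1.23. Both groups of libraries were separate for these genes, yet SMAD6 and BAMBI were farther from control with BPS1 (adjusted p of the difference 0.0162 and 0.00642). Further members that rose were ID2 (0.40), ID3 (0.62), ID4 (0.55) and SMAD7 (0.54), which lie outside the naming rule. The call of ID3 was lost without control replicate 2, 3 or 4 (adjusted p up to 0.0842) and that of SMAD7 without control replicate 2 or 3 (up to 0.0585). Without BPS1 replicate 4, the highest library for ID1, ID3, SMAD6 and BAMBI, 10 of 22 were called higher.

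Wnt and Notch genes showed rises in single members more than across the lists. Of 16 Wnt inhibitors and targets tested, 5 were called higher and 0 lower, while the list's median was 0.03. At an unadjusted p under 0.05, 7 were higher and 4 lower. DKK1, which binds the LRP co-receptor and blocks Wnt signalling, held 999, 1010, 867 and 752 in control and 2459 to 3757 with a median of 2880 in the oligonucleotide libraries. The lowest of these was more than any control. DKK1 rose by 1.70 ± 0.10 (limma adjusted p = 2.39e-06), a 3.25-fold change, with 1.82 for BPS1 and 1.57 for BPS2. PRKG1-AS1, an antisense transcript that overlaps the start of DKK1, rose by 1.38, and reads of the 2 cannot be told apart with certainty, since the kit marks strand but its use in counting is not given in the sources used here. LGR5, the R-spondin receptor, held 384, 393, 410 and 632 in control and 735 to 1031 otherwise (1.02 ± 0.13, limma adjusted p = 8.94e-04). LEF1, a DNA-binding partner of beta-catenin, rose by 0.53. TCF7 (0.38) and APCDD1 (0.46) were called but overlapped with control and were farther from it with BPS1 (adjusted p of the difference 0.0212 and 0.00843). TCF7 was lost without control replicates 2, 3 or 4, BPS1 replicate 3 or BPS2 replicates 1, 2 or 3 (up to 0.116). APCDD1 was lost without any library but control replicate 4 and BPS1 replicate 4 (up to 0.155). The count for the list was 3 without control replicate 2.

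In the Notch list 3 of 19 tested members were called, all higher (15.8%, against 4.23% over all genes tested). At an unadjusted p under 0.05, 6 were higher and 1 lower. In a 2-group model 1 was called higher, and after removal of a GC trend 2 were called higher and 1 lower. HES1, a repressor that Notch switches on, held 26.5, 24.8, 38.9 and 22.2 in control and 58.2 to 148 with a median of 88.3 in the 8 oligonucleotide libraries. It was thus low in all controls and higher in every other library. It rose by 1.59 ± 0.19 (limma adjusted p = 4.52e-04), or 1.90 with BPS1 and 1.28 with BPS2. HEY1, a related target, rose by 0.58 with overlap, more with BPS1 (adjusted p of the difference 0.0146). The ligand gene JAG2 was called at 0.24, and that call was lost without any library but BPS1 replicates 3 and 4 (adjusted p up to 0.112) and after removal of a GC trend (0.260).

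Some feedback genes of the ERK pathway and some immediate early genes, which growth factors and neural activity switch on without new protein synthesis, were also called higher. In the ERK feedback list 6 of 17 tested were called higher and 0 lower (median 0.37), and 3 of the 6 were common. SPRY4, an inhibitor of receptor tyrosine kinase signalling, held 834, 897, 840 and 837 in control and 1463 to 2168 with a median of 1735 otherwise. The controls lay within a narrow range far below the rest. SPRY4 rose by 1.08 ± 0.06 (limma adjusted p = 2.39e-06), more with BPS1 at 1.27 than with BPS2 at 0.88 (adjusted p of the difference 0.00929). ETV4, a factor induced by ERK, held 164, 193, 193 and 130 in control and 343 to 702 otherwise (1.46 ± 0.13, limma adjusted p = 6.17e-05). DUSP4, a phosphatase of ERK, rose by 0.68 with each oligonucleotide. CCND1, the cyclin D1 gene, was called at 0.46 with overlap, and not after removal of a GC trend (0.0807). The count for the list was 4 without control replicate 2.

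Among 23 immediate early genes tested, 8 were called higher and 0 lower, with a list median of 0.41, and at an unadjusted p under 0.05 the counts were 12 and 2. EGR1 held 63.1, 73.8, 80.2 and 48.2 in control and 113 to 207 with a median of 166 in the oligonucleotide libraries. None of the 8 came down to the control range. EGR1 rose by 1.24 ± 0.18 (limma adjusted p = 0.00200), with 1.27 for BPS1 and 1.21 for BPS2. ATF3 rose by 0.79, JUN by 0.53, MAFF by 0.81 and NR4A1 by 0.59, all without overlap. FOS had the largest difference at 2.40 ± 0.47 but overlapped, because control replicate 2 held 245 and the other controls 32.9 to 51.7. Its call was lost without control replicate 3 (adjusted p = 0.0520). NPAS4 (1.22) was lost without control replicate 2, 3 or 4 (up to 0.0804), and JUNB (0.57) without any control or BPS2 replicates 2, 3 or 4 (up to 0.140). NR4A1, FOS, NPAS4 and JUNB are outside the naming rule and complete the list of 8. Without control replicate 3 the list's count was 5.

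**Figure D2:**
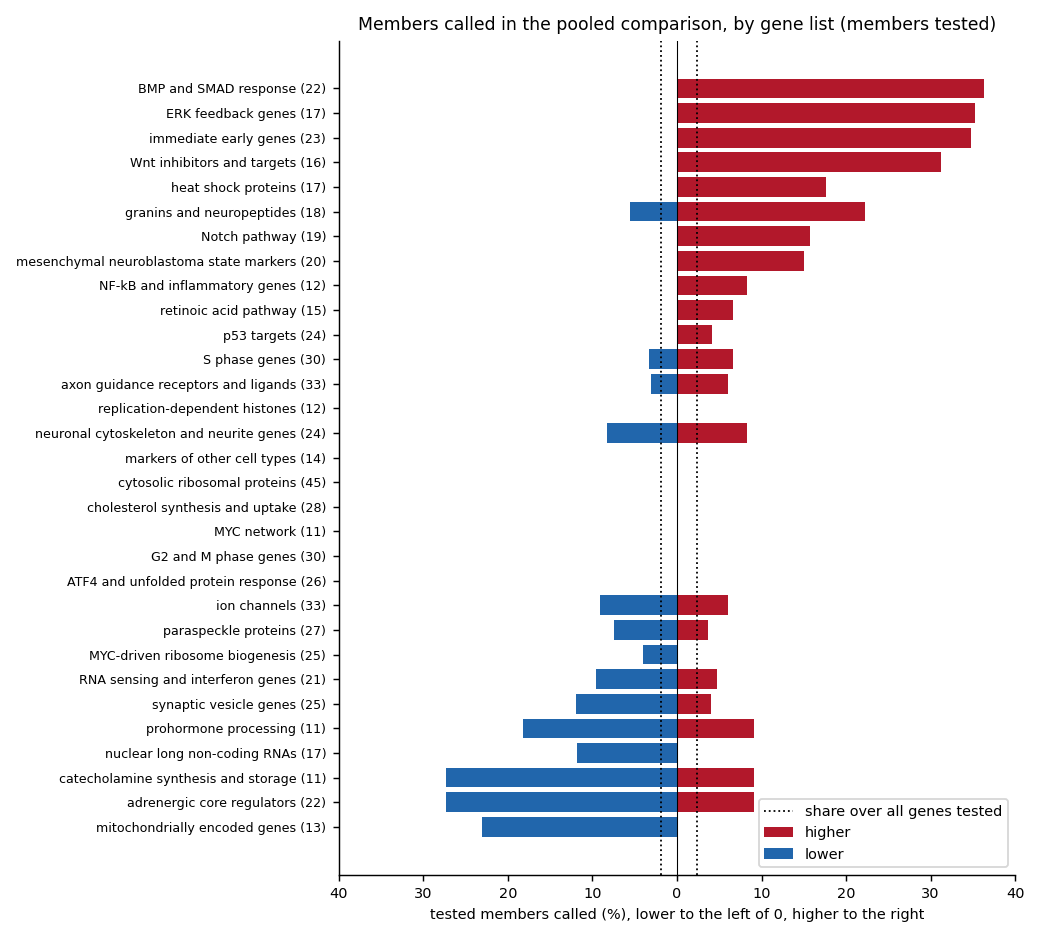
Share of tested members called higher (right of 0) or lower (left of 0) in the pooled comparison for each of 31 gene lists, with the number tested in brackets. Dotted lines mark the shares over all genes tested, 2.32% higher and 1.91% lower, and the BMP, ERK feedback, immediate early and Wnt lists reach 36.4%, 35.3%, 34.8% and 31.2%, all higher.

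Sequences before the start sites of 3 risers are shown because each holds an element of the kind known for its pathway. RefSeq promoters on GRCh38.p14 matched 238 of the 324 common rises, 151 of the 226 common falls and 12972 of all genes tested, and the 250 bases before the start were searched on both strands. Capitals mark the matches: TGACGTCA, the cyclic AMP response element, in VGF at 79 bases before the start, TGGGAA, the core bound by the Notch partner RBPJ, in HES1, and the CArG box of serum response factor in EGR1. The VGF window is chr7:101165570-101165819 on the minus strand, that of HES1 is chr3:194135898-194136147 and that of EGR1 is chr5:138465229-138465478, both on the plus strand.
VGF: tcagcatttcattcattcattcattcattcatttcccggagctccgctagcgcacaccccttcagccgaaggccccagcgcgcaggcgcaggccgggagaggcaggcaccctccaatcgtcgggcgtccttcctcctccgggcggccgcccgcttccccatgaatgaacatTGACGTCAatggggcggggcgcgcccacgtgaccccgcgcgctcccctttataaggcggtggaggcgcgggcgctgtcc
HES1: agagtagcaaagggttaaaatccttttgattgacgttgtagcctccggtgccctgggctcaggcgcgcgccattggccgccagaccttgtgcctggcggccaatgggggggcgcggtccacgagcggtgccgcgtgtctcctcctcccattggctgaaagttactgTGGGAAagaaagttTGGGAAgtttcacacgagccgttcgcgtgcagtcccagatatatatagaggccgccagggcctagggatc
EGR1: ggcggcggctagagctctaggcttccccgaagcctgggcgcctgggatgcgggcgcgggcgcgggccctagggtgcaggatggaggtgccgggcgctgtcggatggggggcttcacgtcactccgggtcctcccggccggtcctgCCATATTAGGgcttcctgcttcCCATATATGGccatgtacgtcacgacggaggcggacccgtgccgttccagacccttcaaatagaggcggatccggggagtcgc
The HES1 and EGR1 windows each hold 2 matches. TGACGTCA was in 11 of the 238 common rises (4.62%), in 2 of the 151 common falls (1.32%) and in 2.65% of the genes tested. The 11 included VGF, MAFF, DUSP8 and GPR3. TGGGAA was in 20.2% of the rises, 19.2% of the falls and 19.8% of the genes tested, and the CArG box in 1.26%, 0% and 0.979%. Other motifs searched were TGANTCA (AP-1; 3.36% of rises, 4.36% of genes tested), GCGGGGGCG (EGR; 7.14% and 7.14%), GGCGCC (GC-rich SMAD element; 27.3% and 24.1%), CACGTG (E-box; 7.14% and 8.45%), TCACCCCAC (sterol element; 0% and 0.316%), CTTTGAT (TCF/LEF; 1.26% and 1.37%) and the NF-kB site (0.42% and 0.355%). TGACGTCA, TGGGAA and the CArG box were in 1.77%, 21.1% and 1.14% of all 27305 promoters. None of the patterns contains another, and a match is a description of letters, not a binding site.

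The largest common rise among genes with a mean of at least 50 was in C7, which encodes a late component of complement. C7 held 13.7, 22.6, 18.2 and 24.4 in control and 67.7 to 176 with a median of 115 in the oligonucleotide libraries. The lowest of the 8 was above every control, as the definition of a common rise requires, and C7 rose by 2.49 ± 0.20 (limma adjusted p = 2.42e-05). It rose 2.28 with BPS1 and 2.70 with BPS2. MAGEH1, a MAGE family gene, rose by 1.41, and the stress-induced cytokine gene GDF15 by 1.31. The transcription factor gene CREB5 was called at 1.37, with 954 in BPS2 replicate 4 and 273 to 351 in the other 3 BPS2 libraries, and lost without control replicate 1 or 4 (adjusted p up to 0.0593). The receptors of semaphorins PLXNA2 and PLXNA4, which guide axons, rose by 1.28 and 1.09, the only 2 of 33 axon guidance genes called higher. In that list 1 gene was called lower, outside the common set, so 9.09% were called, against 4.23% over all genes tested. PLXNA4 held 671, 824, 745 and 741 in control and 1316 to 1735 otherwise, with the same change under both oligonucleotides (1.09 and 1.10), while PLXNA2 rose more with BPS1 (adjusted p of the difference 0.00664). The non-coding AC091544.4 (2.23) spanned 6.84 to 45.1 in control and 49.9 to 159 otherwise. AC015813.1 met the definition of a common rise at 1.47, yet it rose by 2.75 with BPS1 and 0.19 with BPS2, where its lowest library, at 534, lay just above the highest control, at 530.

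**Figure D3:**
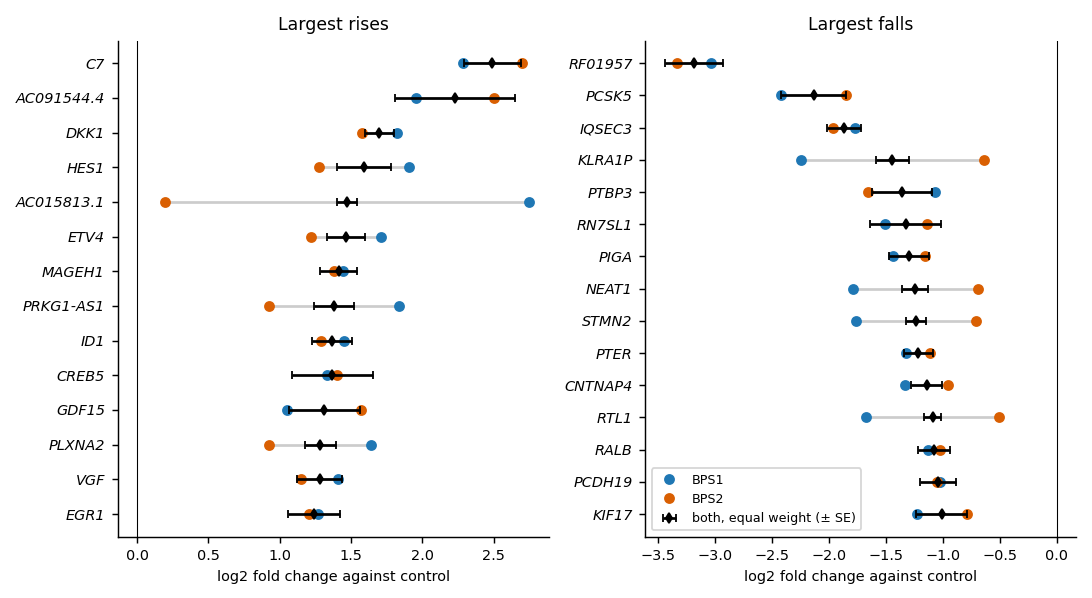
Log2 fold change against control of the largest common rises and falls among genes with a mean of at least 50 that are named in the text, for BPS1 (blue), BPS2 (orange) and both with equal weight (black, ± SE). C7 and DKK1 lie close together for both oligonucleotides, while AC015813.1, KLRA1P, NEAT1, STMN2 and RTL1 lie nearer to 0 with BPS2.

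The largest common fall besides the NEAT1 locus, among genes with a mean of at least 50, was in PCSK5, a convertase that cuts precursors of secreted proteins. PCSK5 held 1356, 728, 882 and 581 in control and 103 to 320 with a median of 198 in the oligonucleotide libraries. Controls varied more than 2-fold, and all lay above the other 8, as the definition of a common fall requires. PCSK5 fell by 2.13 ± 0.28 on the log2 scale (limma adjusted p = 9.22e-04). PIGA, which starts the synthesis of the GPI anchor of surface proteins, held 1208, 1578, 1665 and 1220 in control and 406 to 861 with a median of 605 otherwise (−1.29 ± 0.18, limma adjusted p = 0.00113). IQSEC3, an exchange factor of inhibitory synapses, held 330 to 421 in control and 85.5 to 146 otherwise (−1.87). Its identifier has no position in release 29 of GENCODE. PCDH19, a cell adhesion protein of neurons, fell by 1.04, with 1408 to 2575 in control and 790 to 1245 otherwise. The direct test of BPS2 against BPS1 called none of these 4 genes, with adjusted p from 0.414 for PCSK5 to 0.974 for PCDH19, which does not show that the changes are equal. Smaller falls of this set were PTER (−1.22), the neurexin relative CNTNAP4 (−1.14) and RALB, a Ras-like GTPase (−1.08).

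STMN2, a regulator of microtubules in growing neurites, fell with both oligonucleotides but not to the same level. It held 11604, 10871, 10375 and 10584 in control and 2822 to 6914 with a median of 5215 otherwise. The fall was 1.76 on the log2 scale with BPS1 and 0.71 with BPS2 (−1.23 pooled, adjusted p of the difference 8.67e-05). RTL1, an imprinted gene derived from a retrotransposon, and the pseudogene KLRA1P showed the same order (adjusted p of the difference 8.08e-06 and 1.66e-04). The call of some falls was lost when 1 library was left out, at folds of similar size. The splicing regulator PTBP3 (−1.36) missed the threshold without control replicate 3 (adjusted p = 0.0511), with −1.54 to −1.19 over the 12 omissions. The dendritic kinesin KIF17 (−1.01) missed it without control replicate 1 or 2 (up to 0.0842), with −1.11 to −0.89. RN7SL1, a copy of 7SL RNA that shares sequence with others, held 1089 in control replicate 1 and 294 to 380 in the other controls. Its fall of 1.33 on the log2 scale dropped to 0.89 without that library, and the call was lost without control replicate 4, BPS1 replicates 2 or 3, or BPS2 replicates 1, 3 or 4 (up to 0.0625).

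Factors that keep the adrenergic state mostly fell among those called. Of 22 adrenergic core regulators tested, 6 were called lower and 2 higher, all 8 of them common, and the list's median was −0.12. At an unadjusted p under 0.05 the counts were closer, with 7 lower and 5 higher. EYA1, a co-activator in sympathetic precursors, held 2438, 2503, 2352 and 2600 in control and 1427 to 1822 with a median of 1630 in the oligonucleotide libraries. A clear gap separated the groups. EYA1 fell by 0.61 ± 0.08 on the log2 scale (limma adjusted p = 7.44e-04), with −0.60 for BPS1 and −0.62 for BPS2. INSM2, a zinc finger factor of endocrine and neural cells, held 11065 to 11677 in control and 7853 to 8865 otherwise (−0.45 ± 0.05, limma adjusted p = 1.44e-04). TFAP2B, a neural crest factor, fell by 0.42, HAND2 by 0.37 and ISL1 by 0.32. HAND2 fell farther with BPS1 (adjusted p of the difference 0.00465). GATA2 (0.27) and TBX2 (0.62) were the members called higher, and GATA2 was lost without control replicates 2 or 3 or BPS2 replicates 2, 3 or 4 (adjusted p up to 0.09995). ISL1, GATA2 and TBX2 lie outside the naming rule. The count of falls was 6 in each of the 12 fits that left out 1 library and 4 in a 2-group model, which HAND2 missed (0.104). The count of rises ranged from 1 to 4 over the 12 fits. MYCN was not called (−0.11 ± 0.06, limma adjusted p = 0.386), although it was without control replicate 1 and BPS1 replicate 4 together (0.0464).

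Enzymes of catecholamine metabolism fell in part. Of 11 tested, 3 were called lower and 1 higher, CYB561, and all 4 were common (36.4% called, against 4.23% over all genes tested). The list's median was −0.33 with BPS1 and 0.00 with BPS2, so the list as a whole was not lower with BPS2. At an unadjusted p under 0.05, 5 were lower and 2 higher. DDC, which makes dopamine from DOPA, held 12314, 10550, 9873 and 9049 in control and 4915 to 7769 with a median of 6871 otherwise. The groups did not overlap, and the fall was 0.70 ± 0.10 on the log2 scale (limma adjusted p = 0.00114), with −0.90 for BPS1 and −0.50 for BPS2. MAOA, which breaks down monoamines, fell by 0.72, farther with BPS1 (adjusted p of the difference 0.0310). DBH, which makes noradrenaline, fell by 0.28, with −0.36 for BPS1 and −0.20 for BPS2. This call was lost without control replicates 1, 2 or 3 or BPS2 replicate 4 (adjusted p up to 0.0848).

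Of 18 granin and neuropeptide genes tested, 4 were called higher and 1 lower, and 8 were higher and 4 lower at an unadjusted p under 0.05. SCG2, the secretogranin of dense-core vesicles, held 1162, 1069, 1060 and 942 in control and 1850 to 2755 with a median of 2131 otherwise. Every oligonucleotide library lay above all controls, with a fold change of 2.05 between the groups (limma adjusted p = 6.17e-05) and values of 1.07 for BPS1 and 1.00 for BPS2 on the log2 scale. VGF, the precursor of several neuropeptides, held 183, 189, 225 and 183 in control and 342 to 747 with a median of 485 otherwise (1.28 ± 0.16, limma adjusted p = 5.61e-04). NPY rose by 0.90. CRH rose by 1.70 with overlap, since its lowest oligonucleotide library, at 29.3, was below the highest control, at 30.3. CHGA, named because it was the only fall, was called at −0.42 and lost without control replicate 1 or 2 (adjusted p up to 0.0647). Of 25 synaptic vesicle genes, RAB3A (−0.57), CADPS (−0.74) and SNAP25 (−0.28) were called lower and SYT11 (0.24) higher. At an unadjusted p under 0.05, 5 were higher and 5 lower. The RAB3A call held in all omissions, that of CADPS and SNAP25 was lost without control replicate 2 or 3 (up to 0.0521 and 0.0750) and that of SYT11 without control replicate 3 or 4 (up to 0.0522).

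Mesenchymal state markers were called higher in 3 of 20 cases and lower in 0, all common. At an unadjusted p under 0.05, 5 were higher and 3 lower. With a GC trend removed, 2 were called higher and 2 lower. The neural crest factor SNAI2 held 18.3, 9.84, 24.5 and 25.1 in control and 29.6 to 54.6 otherwise, a rise of 1.13 ± 0.22 (limma adjusted p = 0.0105). SNAI1 rose by 0.61 and the collagen gene COL1A1 by 0.34, and COL1A1 missed the threshold after removal of a GC trend (0.0511). In a 2-group model SNAI1 (0.0541) and COL1A1 (0.0655) missed it, which left 1 of 20 called, and with a replicate block 4 were higher and 1 lower. The sum of the list was 11457 to 12852 in control, 12071 to 14503 in BPS1 and 12220 to 13206 in BPS2, so these ranges overlapped. Among other common genes, chosen after their values were seen, were receptors used in sympathetic development. RET, the GDNF receptor kinase, held 7106, 7524, 7897 and 8384 in control and 11117 to 13974 with a median of 12572 otherwise (0.70 ± 0.06, limma adjusted p = 5.59e-05). NGFR, the low-affinity neurotrophin receptor, rose by 0.65, the apelin receptor gene APLNR by 1.63 and the cadherin gene CDH11 by 0.65. NTRK2, the BDNF receptor gene, fell from 37.1 to 51.0 in control to 20.8 to 36.2 (−0.72), and its call was lost without control replicate 1 or 3 (adjusted p up to 0.0793).

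Clustered protocadherins, surface proteins that give neurons a surface identity, formed a further group of rises. This family was picked after its values were seen and is described without a test. Of 53 members tested, 11 were called higher (20.8%), all common, and 0 lower. Over all genes tested, 2.32% were called higher and 1.58% were common rises. The calls were 6 of 16 PCDHB genes, 4 of 12 PCDHGA genes and 1 of 7 PCDHGB genes, with 0 of 15 PCDHA and 0 of 3 PCDHGC genes by limma (at an unadjusted p under 0.05, 0 higher and 1 lower, and 2 higher and 0 lower). Median log2 fold changes were 0.44 for PCDHB and 0.59 for PCDHGA, against −0.21 for PCDHA, which lies next to them on chromosome 5. PCDHB8 held 41.7, 50.2, 37.2 and 44.0 in control and 69.9 to 90.8 with a median of 83.9 otherwise (0.90 ± 0.12, limma adjusted p = 9.12e-04). It was low in each control and changed alike under BPS1 (0.94) and BPS2 (0.87). PCDHB12 (0.93) and PCDHGA3 (1.08) rose as well, the last at low values of 4.40 to 6.86 in control and 9.58 to 16.3 otherwise, and lost without control replicate 2 or 3 (up to 0.0612). Members of a cluster are alike in sequence, and PCDHG transcripts share their last exons, so the split of reads between them is uncertain. The count of 11 ranged from 4, without control replicate 2, to 17, without BPS1 replicate 4.

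**Figure D4:**
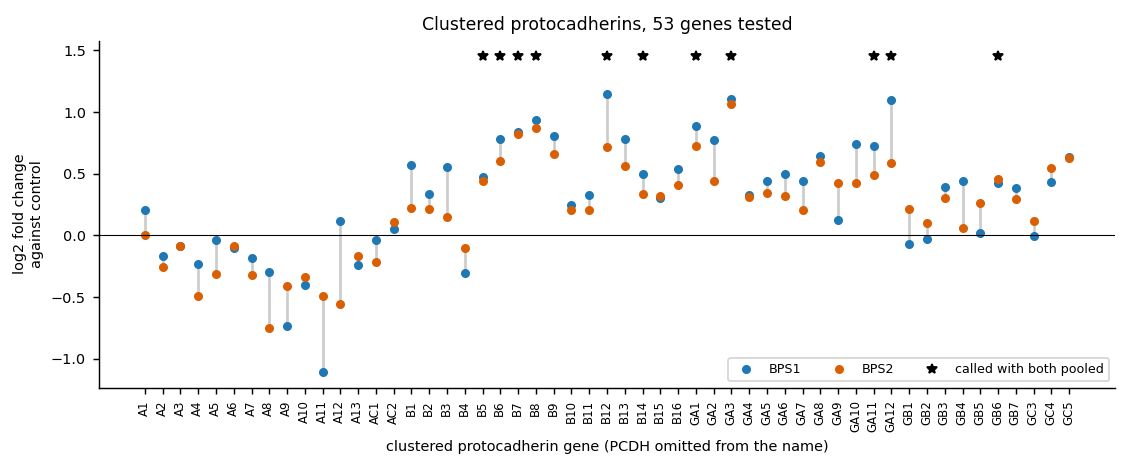
Log2 fold change against control of the 53 clustered protocadherin genes tested, for BPS1 (blue) and BPS2 (orange), in order of family and number; stars mark the 11 called with both oligonucleotides pooled. PCDHB and PCDHGA members lie mostly above 0 (medians 0.44 and 0.59), PCDHA members mostly below (median −0.21).

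Several lists held few or no calls. Over all genes tested 4.23% were called, so 0 calls in a short list do not show that it was unchanged. Among cholesterol synthesis genes 0 of 28 were called in the pooled comparison by limma, with 2 higher and 6 lower at an unadjusted p under 0.05, and the list's median was −0.23 with BPS1 and 0.20 with BPS2. The ATF4 and unfolded protein list had 0 of 26 called (6 higher and 1 lower unadjusted), G2 and M phase genes 0 of 30 (1 and 1) and the MYC network 0 of 11 (1 and 0), all by limma. Histones had 0 of 12 (1 and 1) and markers of other cell types 0 of 14 (2 and 1). Cytosolic ribosomal proteins had 0 of 45 called (0 higher and 4 lower unadjusted), but 8 lower without BPS1 replicate 4. Heat shock genes HSPA1B (0.55), HSPA4 (0.42) and STIP1 (0.20) were called higher of 17 tested, and 6 were without BPS1 replicate 4. HSPA1B has a near-identical copy, and HSPA4 was lost without 6 single libraries and STIP1 without 8, control replicates 2, 3 and 4 among them (up to 0.0981 and 0.111). Of the lists for NF-kB, p53 targets and the retinoic acid pathway, 1 member each was called, higher (8.33%, 4.17% and 6.67%). Of MYC-driven ribosome biogenesis 1 was called, lower (4.00%). Ion channels had 2 higher and 3 lower of 33, the neuronal cytoskeleton 2 and 2 of 24, S phase genes 2 and 1 of 30, and prohormone processing 1 and 2 of 11.

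In the RNA sensing and interferon list, the sensor gene DDX58 was called higher at 1.08 but was carried by BPS1 alone, with 2.17 for BPS1 and −0.01 for BPS2 (adjusted p of the difference 5.40e-07). STAT2, which transmits interferon signals, was a common fall at −0.65, with 855 to 906 in control and 392 to 780 otherwise. It was uneven, with −1.01 for BPS1 and −0.30 for BPS2 (adjusted p of the difference 6.13e-04). In a 2-group model STAT2 missed the threshold (0.0933). DHX58 was called at −0.96 and lost without control replicate 2, 3 or 4 (adjusted p up to 0.0880). The ion channel gene KCNT1 was likewise called at 1.42 with 2.72 for BPS1 and 0.12 for BPS2. Some genes changed in opposite directions. ZBED6CL, ADAT2, IGFN1 and GPX3 were not called (pooled values of 0.00 to 0.09), yet each was called lower with BPS1 (−0.77, −0.60, −0.53 and −0.43) and higher with BPS2 (0.95, 0.77, 0.54 and 0.61). They had the largest opposite changes of 5 such genes.

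Mitochondrial transcripts were lower in part. Of 37 genes of the mitochondrial genome tested, 7 were called lower (18.9%), 6 of them common, and 0 higher. Over all genes tested, 1.91% were called lower. Of the 13 that encode proteins, 3 were called, MT-ND5, MT-ND6 and MT-ATP8, and without BPS1 replicate 4 it was 7. MT-RNR2, the large mitochondrial ribosomal RNA, held 360124, 336137, 324206 and 299628 in control and 210316 to 240688 with a median of 226613 otherwise (−0.54 ± 0.05, limma adjusted p = 1.08e-04). It was outside the lists and chosen after its values were seen. The other mitochondrial ribosomal RNA was not called, at 0.27 pooled, 0.72 with BPS1 and −0.19 with BPS2. The RNA had been depleted of ribosomal RNA, and the part of that step in these values was not tested. MT-ND5 (−0.41) and MT-ND6 (−0.46) had their highest value in control replicate 1, and their calls held without it. Of 17 nuclear long non-coding RNAs tested besides NEAT1, 2 were called lower, MALAT1 and MIR17HG, and 9 were lower and 0 higher at an unadjusted p under 0.05. Their summed level was 59810 to 67316 in control, 47756 to 49427 in BPS1 and 54175 to 55738 in BPS2, without overlap. MALAT1 was called at −0.75, with 14124 in control replicate 1 and 5515 to 7150 in the other controls. Without control replicate 1 the value was −0.47 and still called. Its call was lost without control replicates 2 or 3, BPS1 replicates 1 to 3 or any BPS2 library (up to 0.0838), and after removal of a GC trend (0.0538). Common rises had a higher transcript GC content than common falls, a median of 52.5% against 48.6%, with 49.2% over all genes tested. Protein-coding genes made up 86.0% of the rises and 75.5% of the falls with an entry in the annotation, against 72.0% of the genes tested. With the GC trend removed 472 of the 550 common genes remained among 634.

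**Figure D5:**
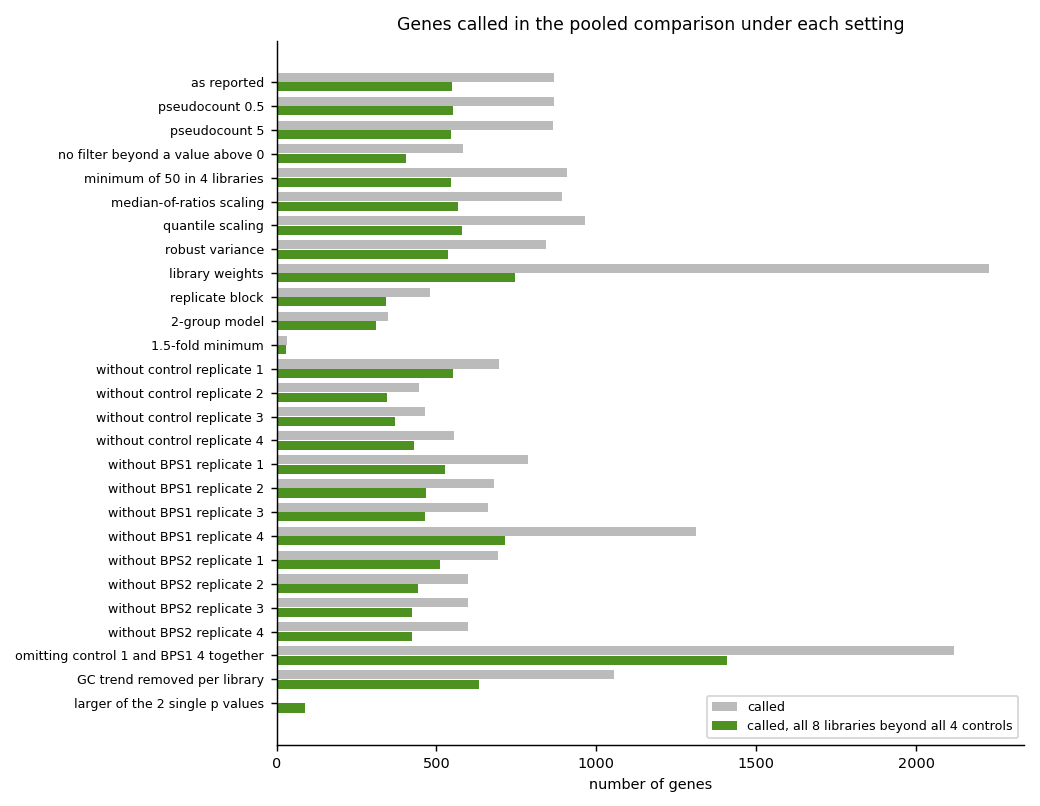
Number of genes called in the pooled comparison (grey) and called with all 8 oligonucleotide libraries beyond all 4 controls (green) under each setting; fits without a library compare the libraries left. The count as reported is 866 and 550, and omission of 1 library gives 446 to 1311 and 344 to 713.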

How the data were processed

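RNA-seq of total RNA, depleted of ribosomal RNA and read as single 100-base reads, was deposited as 1 table of signal values, the authors' normalized counts per gene and library, for 55771 genes. FastQC 0.11.7, Salmon 0.8.2, DESeq2 and the build GRCh38 appear in the submitters' processing notes. The DESeq2 version and annotation release were not given in the sources used here. For BPS2, titles served to match columns, because the descriptions read KPAS. Whole reads could not be recovered for most genes, so no count test was run and the depth behind a single value is unknown. The filter kept genes that reached 10 in 4 or more libraries. One fit with limma 3.58.1 (R 4.3.3; 3 groups, eBayes with a trend) on log2(normalized count + 1) gave the mean of BPS1 and BPS2 minus control, each oligonucleotide minus control, and BPS2 minus BPS1. A gene was called when its p (two-sided, adjusted by Benjamini-Hochberg across all genes kept) was under 0.05. The permutation test used scipy 1.17.1. The fit was tested on simulated data. Members, the 31 gene lists and the naming rule were chosen with earlier results of these data known. The rule took NEAT1, MYCN, the 15 largest common rises and falls with a mean of at least 50, up to 4 members per list by smallest p, and the 4 largest opposite changes. Some genes taken by the rule are not reported here. GENCODE release 29 (GRCh38) supplied positions, biotypes and transcript GC for 53405 identifiers, and may differ from the authors' release. No sample was left out. Alternatives covered the pseudocount, the filter, scaling, variance, weights, a replicate block, a 2-group model, a 1.5-fold minimum and omitted libraries. Removal of each library's GC trend was chosen after seeing the data.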

Additional observations from a re-analysis of the deposited data

Results flagged for a closer look

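In groups of 4 libraries of the named genes, 30 values stood apart from the other 3 (Dixon's test), of 300 groups looked at, where chance gives about 1 in 20. BPS1 replicate 4 gave 12 of them. It was high for ID1 at 1346 against 729 to 831 in the other 3 libraries, SMAD6 at 2447, BAMBI at 1469, ID3 at 7077, TBX2 at 12963 and GATA2 at 32307. It was also high for JUN at 1542, JUNB at 865, NPAS4 at 142, DBH at 27636 and ZBED6CL at 580, and low for CADPS at 849. Control replicate 1 was high for RN7SL1 at 1089 against 294 to 380, NPY at 123, MT-ND5 at 112712 and MT-ND6 at 31480. Control replicate 2 was high for FOS at 245 against 32.9 to 51.7, ATF3 at 469 and SPRY4 at 897. Control replicate 3 was high for VGF at 225 and low for IQSEC3 at 330, and control replicate 4 was high for SMAD6 at 775 and LGR5 at 632. BPS1 replicate 1 was low for EGR1 at 113. BPS2 replicate 4 was high for CREB5 at 954 and KCNT1 at 40.3, BPS2 replicate 3 for HSPA1B at 5306 and NTRK2 at 24.4, and BPS2 replicate 1 for TFAP2B at 6272, while it was low for CHGA at 84556.

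For 23 named genes the direct comparison of BPS2 with BPS1 passed the threshold, and the values below are log2 differences, BPS2 minus BPS1. Genes raised less with BPS2 were KCNT1 (−2.60), AC015813.1 (−2.56), DDX58 (−2.18), PRKG1-AS1 (−0.91), APCDD1 (−0.73), BAMBI (−0.72), PLXNA2 (−0.71), SMAD6 (−0.58), HEY1 (−0.51), TCF7 (−0.46) and SPRY4 (−0.39). Genes lowered less with BPS2 were KLRA1P (1.60), RTL1 (1.16), NEAT1 (1.10), STMN2 (1.06), STAT2 (0.71), HAND2 (0.39), MAOA (0.38) and RBM3 (0.31). The oligonucleotides moved ZBED6CL (1.72), ADAT2 (1.36), IGFN1 (1.07) and GPX3 (1.04) in opposite directions.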

How the results depend on the processing

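The counts of 866 called and 550 common genes were 2227 called with library weights, 481 and 341 with a replicate block, 348 and 312 in a 2-group model, 32 and 31 against a 1.5-fold minimum, and 2118 and 1410 without control replicate 1 and BPS1 replicate 4 together. With the larger of the 2 single p-values, 90 genes were common. Leaving out 1 library gave 446 to 1311 called and 344 to 713 common genes, lowest without control replicate 2 and highest without BPS1 replicate 4, with 465 and 556 called without control replicates 3 and 4. NEAT1 kept its call throughout, at −1.29 to −1.16 without single libraries. Other settings kept both counts within 1.5 times. After removal of group means, same-numbered libraries correlated over genes at r of −0.272 to 0.103 in 12 pairs. With 4 libraries per group, these values do not settle whether replicate numbers pair the libraries. Of 95 called genes named, 70 passed in all 12 fits without 1 library, and none changed sign in any setting; 74 missed a 1.5-fold minimum, 22 the 2-group model, 16 the block and 14 the fit without a filter. The cause of these changes was not tested. Without reads for most genes, counting error is not separable from the spread between libraries.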
